A study of Homo sapiens with 12 samples.

Results

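In the human neuroblastoma cell line SK-N-SH, 174 of 18739 genes had almost no reads in the solvent control and clear expression after chaetocin. They were chosen by their counts. A gene had to sum to at most 3 counts over the 3 DMSO libraries and to at least 60 counts over the 3 libraries treated with chaetocin at 50 nM. Genes whose symbols begin with CXCL, CCL, IL, TNF, LT, IFI, OAS, ZNF, SERPINB, DNAH, CFAP, ITG or KRT were set aside, which removed 15 of the 189 genes that met the limits. RNA was measured in 12 libraries, 3 for each of 4 groups: cells given chaetocin at 50 nM, cells given DMSO, cells transfected with an siRNA against SUV39H1 (siSUV39H1) and cells transfected with a control siRNA (siNC). The labels give no length of treatment and no separate culture days. They give the genotype as WT, and as SUV39H1-knockdown for the siSUV39H1 libraries. The submitters' design text speaks of shSUV39H1 and shNC, and of biological triplicates. Where replicates were not separate cultures, p-values measure only the spread between libraries. Fold changes of the members between chaetocin and DMSO describe what the choice fixed, and no test of that contrast is given for them.

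The enzyme SUV39H1 places trimethylation on lysine 9 of histone H3, a mark of heterochromatin that keeps repeats and many tissue-restricted genes silent. Chaetocin is a fungal epidithiodiketopiperazine used as an inhibitor of this enzyme, and it also reacts with cellular thiols and inhibits thioredoxin reductase. Genes of the germ line, of blood cells or of the skin are normally kept off in cells of the sympathetic nervous lineage, from which neuroblastoma arises. Histone methylation was not measured in these libraries.

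SUV39H1 itself had 109, 124 and 109 counts in the siSUV39H1 libraries, against 360, 323 and 332 counts in the siNC libraries. With chaetocin it had 151, 151 and 140 counts, against 384, 374 and 466 counts in DMSO, so the groups did not overlap in either pair. Total counts were 18004591 to 18235454 with chaetocin, 19644370 to 19976963 in DMSO, 19595788 to 19687522 with siSUV39H1 and 19748775 to 19875776 with siNC. The 10 noradrenergic neuroblastoma markers summed to 67.8 to 69.9 TPM with chaetocin, 910 to 1120 TPM in DMSO, 671 to 750 TPM with siSUV39H1 and 529 to 539 TPM with siNC. TPM is a level that takes transcript length into account. TH, the first enzyme of catecholamine synthesis, was at 3 counts or fewer in each group. The 8 mesenchymal markers summed to 6654 to 7884 TPM with chaetocin, 13075 to 13479 TPM in DMSO, 11898 to 12574 TPM with siSUV39H1 and 11497 to 12311 TPM with siNC. Most of this sum was VIM, with a mean of 4305 TPM with chaetocin and 9298 TPM in DMSO. Means of CD44 (212 against 142 TPM) and YAP1 (46.7 against 20.3 TPM) were higher with chaetocin than in DMSO, and those of the other markers were lower.

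Most genes silent in DMSO stayed under 60 counts with chaetocin, but the larger part of them rose above 3 counts. In DMSO 2835 genes summed to at most 3 counts, and the 174 members are 6.14% of them. Another 1165, or 41.1%, also summed to at most 3 counts with chaetocin, and 1481 lay between the limits of 3 and 60. The number of genes at 3 counts or fewer over a group was 1319 with chaetocin, 2835 in DMSO, 2909 with siSUV39H1 and 2940 with siNC. Members just inside the chaetocin limit were TGM7 with 60 counts, SIM1 with 60.2 and STPG2 with 60.2. Just outside it were MRGPRE with 59 counts and NLRP5 and ACKR3 with 58 each. At the DMSO limit, SLCO2B1, SBSN and MTTP had exactly 3 counts, while SUN3 (3.02), SLC15A3 (3.07) and SEC16B (3.17) fell outside. SLC15A3, a peptide and histidine transporter of endolysosomes, had 2538 counts with chaetocin and was left out by 0.07 of a count, so the borders of the set are arbitrary.

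**Figure D1:**
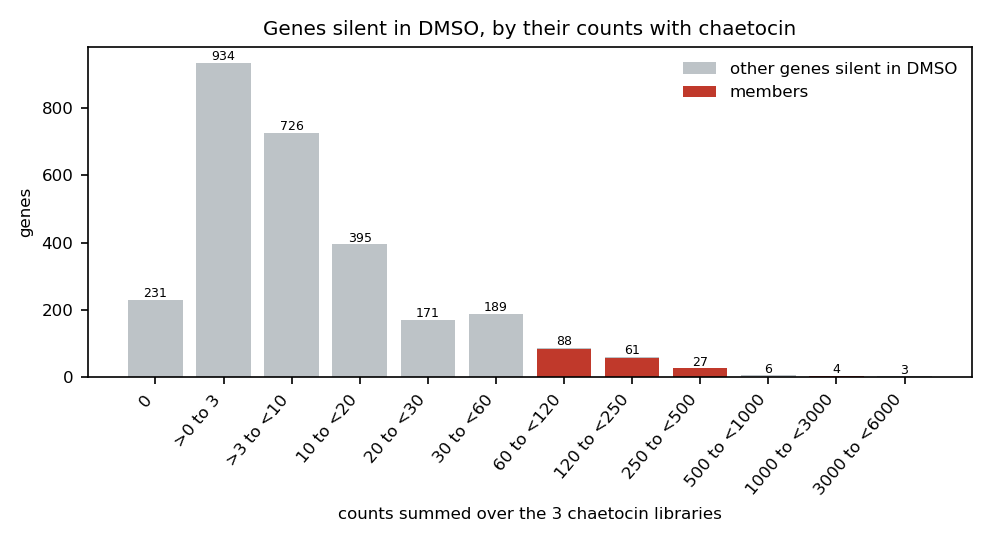
Number of genes with at most 3 summed counts in DMSO (vertical axis), by their counts summed over the 3 chaetocin libraries (horizontal axis, uneven bins). The 174 members, in red, lie between 60 and 3000 counts; grey above 60 counts marks the 15 genes set aside by symbol, among them the 3 genes above 3000 counts.

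Together the members held 34941 counts with chaetocin (11894, 11996 and 11051 in the 3 libraries), against 214 counts in DMSO (75.7, 78.5 and 59.7). With siSUV39H1 they held 551 counts (169, 205 and 177), and with siNC 469 counts (132, 164 and 173). The set therefore took 642 CPM (counts scaled to library size) with chaetocin, 3.59 in DMSO, 9.34 with siSUV39H1 and 7.89 with siNC. In bulk RNA, expression in a few cells and a low level in all of them cannot be told apart. The gene with the most counts, MLC1, held 7.79% of the chaetocin counts and the top 5 held 23.1%.

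The 3 chaetocin libraries gave similar values for the members. The coefficient of variation had a median of 15.3%, from 0.858% for FGA to 88.0% for H3C14, and 173 of 174 members had at least 10 counts in each chaetocin library and lay above each DMSO library in all 3. In the same contrast 41.1% of 15051 tested genes were called higher and 38.4% lower with chaetocin by edgeR's quasi-likelihood test, and 21.8% were called and at least 2-fold higher. The rule used this contrast. The exception, H3C14, a replication-dependent histone H3 gene with near-identical copies, had 75.2, 0 and 58.3 expected counts with chaetocin and 0 in each DMSO library. It also had 0, 20.4 and 0 with siSUV39H1 and 0, 0 and 12.4 with siNC, so its reads came and went between replicates of every group but DMSO. Mean TPM with chaetocin ran from 0.273 (SIM1) to 84.2 (UBD) with a median of 2.22. A level of at least 1 TPM was reached by 137 members and 10 TPM by 11. The median gene with at least 1 TPM in these libraries had 15.04 TPM, a level 5 members exceeded, so most of the set was weakly expressed. For the 61 members with 0 counts in DMSO, the fold against a floor of 3 counts over the group was at least 19.7 to at least 695. For the other 113 the ratio of CPM was 19.7 to 1343.

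**Figure D2:**
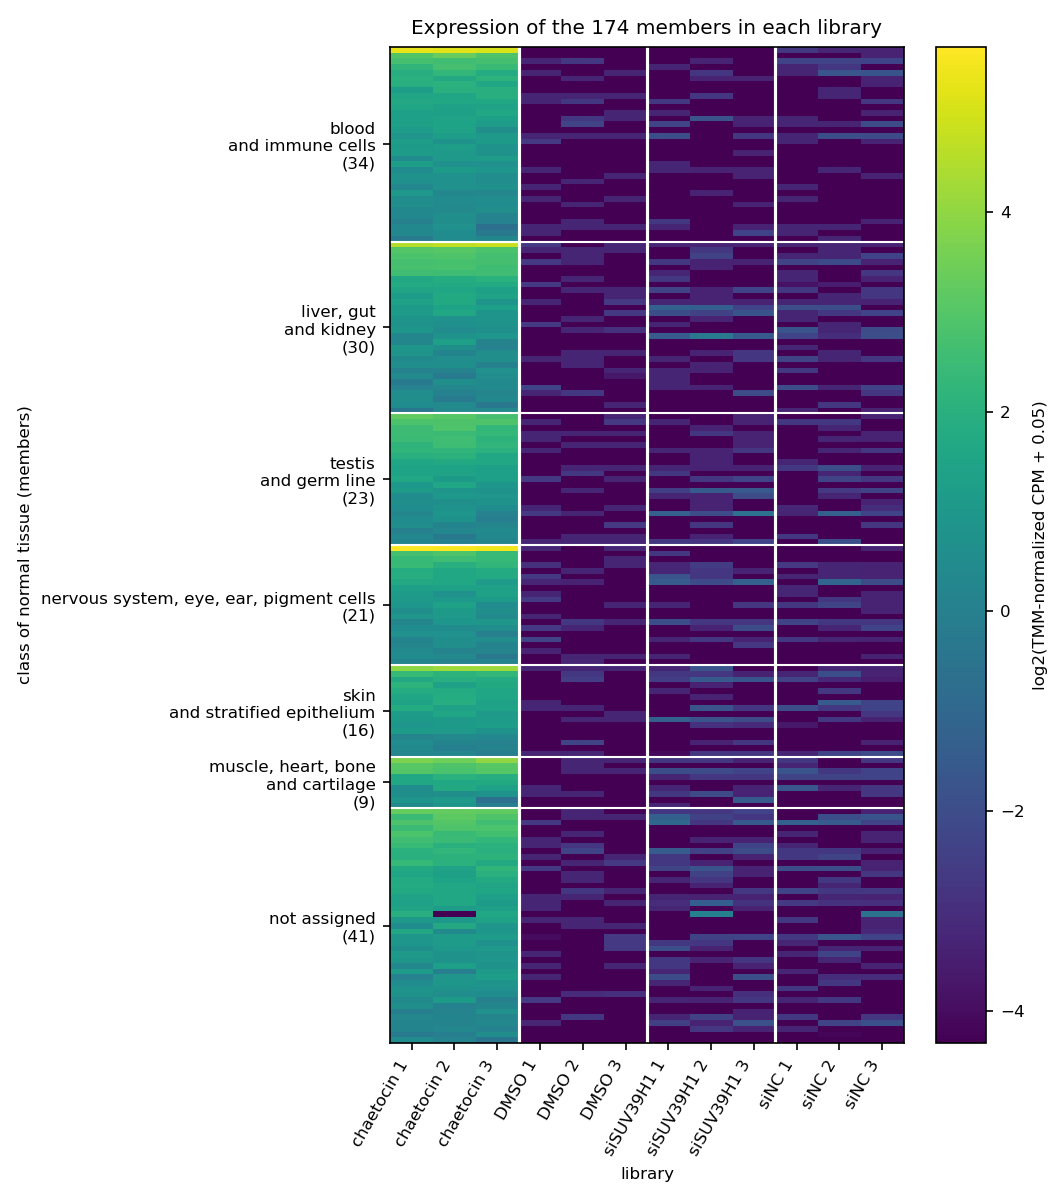
Each row is 1 of the 174 members, ordered by class of normal tissue and by counts, and each column is 1 library; colour gives log2 of TMM-normalized CPM plus 0.05. The 3 chaetocin columns are bright throughout except for 1 dark cell, H3C14 in chaetocin 2, and the 9 other columns are mostly dark.

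Members were sorted into 6 classes of normal tissue from general knowledge, after their values had been seen, with 41 left unassigned. Blood and immune cells took 34, liver, gut and kidney 30, testis and germ line 23, nervous system, eye, ear and pigment cells 21, skin and stratified epithelium 16, and muscle, heart, bone and cartilage 9. By biotype 171 are protein coding, 2 are long non-coding RNAs and 1 is a transcribed pseudogene. The class medians lay close together, between 1.38 TPM for the nervous system class and 2.65 TPM for the skin class, with 2.77 TPM for unassigned members.

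Promoters of 5 members are printed to show how far the sequences before their starts differ. UBD and MLC1 lead the set in TPM. SELE is a textbook cytokine-induced gene, and BFSP2 and EXOC3L4 are the 2 members whose windows hold both a kappa-B and an interferon motif. Each line gives the 250 bases before the RefSeq start (GRCh38.p14), 5′ to 3′ on the gene's strand, with motif matches on either strand in capitals. UBD lies at chr6:29559733-29559982 (minus strand), SELE at chr1:169734080-169734329 (minus), EXOC3L4 at chr14:103094475-103094724 (plus), BFSP2 at chr3:133399806-133400055 (plus) and MLC1 at chr22:50085427-50085676 (minus). The starts of EXOC3L4 and MLC1 lie inside the RefSeq gene span, which includes longer transcripts.
UBD: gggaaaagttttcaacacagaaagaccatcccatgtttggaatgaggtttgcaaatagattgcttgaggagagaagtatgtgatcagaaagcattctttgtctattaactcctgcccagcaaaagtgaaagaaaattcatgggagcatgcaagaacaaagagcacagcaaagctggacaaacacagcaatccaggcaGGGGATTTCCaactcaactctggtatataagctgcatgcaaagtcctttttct
SELE: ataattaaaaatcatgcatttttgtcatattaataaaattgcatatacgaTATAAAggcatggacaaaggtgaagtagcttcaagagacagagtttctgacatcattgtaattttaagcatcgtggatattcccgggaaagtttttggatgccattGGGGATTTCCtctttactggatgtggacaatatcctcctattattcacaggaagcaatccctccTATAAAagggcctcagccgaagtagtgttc
EXOC3L4: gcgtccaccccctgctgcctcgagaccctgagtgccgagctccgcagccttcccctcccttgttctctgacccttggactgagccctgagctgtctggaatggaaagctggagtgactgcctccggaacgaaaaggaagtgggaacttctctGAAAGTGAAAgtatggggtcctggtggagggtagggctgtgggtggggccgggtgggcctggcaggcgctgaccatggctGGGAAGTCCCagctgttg
BFSP2: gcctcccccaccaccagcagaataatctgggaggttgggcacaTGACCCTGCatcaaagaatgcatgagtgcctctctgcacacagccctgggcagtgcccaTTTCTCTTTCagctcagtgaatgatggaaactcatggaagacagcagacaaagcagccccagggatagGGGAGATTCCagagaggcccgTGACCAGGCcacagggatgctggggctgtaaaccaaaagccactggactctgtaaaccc
MLC1: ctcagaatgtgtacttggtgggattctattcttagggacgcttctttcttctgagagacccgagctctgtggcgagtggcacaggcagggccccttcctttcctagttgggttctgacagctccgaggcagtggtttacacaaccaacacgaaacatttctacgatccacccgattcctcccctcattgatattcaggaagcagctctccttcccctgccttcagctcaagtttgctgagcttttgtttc

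The capitals in UBD are a kappa-B consensus, GGGGATTTCC, starting 53 bases before the start. SELE carries the same 10 letters 94 bases before its start, and a TATA box (TATAAA) at 30 and at 200 bases before it. In EXOC3L4 the first capitals are an interferon-stimulated response element (ISRE, TTTCNNTTTC) on the other strand, 98 bases before the start, and the second are a kappa-B consensus on the other strand, 18 bases before it. BFSP2 holds an antioxidant response element (ARE, TGACNNNGC) at 207 and at 59 bases before the start, an ISRE at 148 and a kappa-B consensus at 80. MLC1, the gene with the most counts, has no match to any of the 5 motifs searched (the fifth being AP-1, TGANTCA). A match is a description of letters and not a bound site.

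Of the 174 members, 138 had a RefSeq promoter window of 300 bases, from 250 before to 50 after the start. The kappa-B consensus was in 7.97% of them, against 5.60% of 804 promoters of genes silent in both DMSO and chaetocin and 6.496% of all 14747 promoters. ISRE was in 4.35%, against 4.23% and 3.10%, AP-1 in 7.25%, against 9.33% and 5.57%, and ARE in 10.9%, against 12.7% and 14.6%. These shares rest on 6 to 15 member promoters each, and for ISRE the exact 95% interval ran from 1.61% to 9.22%. The TATA box was in 24 member promoters or 17.4%, against 21.3% of promoters silent in both conditions and 8.37% of all promoters. Differences between these shares were not tested.

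Member promoters were poor in CpG. The ratio of observed to expected CpG in the window had a median of 0.323 in members and 0.281 in genes silent in both conditions. It was 0.715 in 2322 genes that were at least 2-fold higher with chaetocin but not silent in DMSO, and 0.782 over all promoters. A ratio under 0.4 was found in 63.0% of member promoters, 63.3% of those silent in both, 28.1% of the other 2-fold higher genes and 21.7% of all. Median GC content was 53.8% in members, 53.3% in genes silent in both and 63.3% over all promoters. Low CpG content was therefore as frequent among silent genes that stayed silent as among members.

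**Figure D3:**
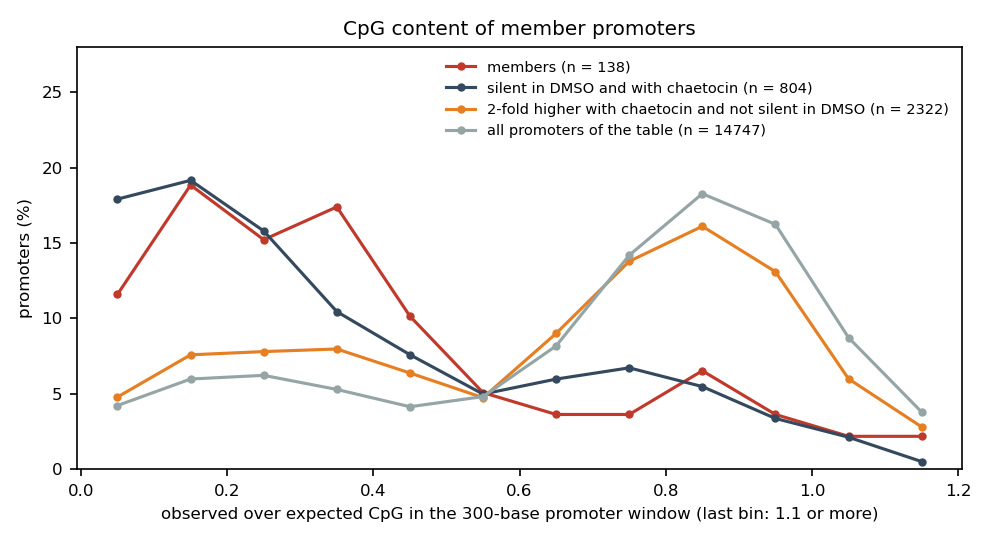
Share of promoters (vertical axis, percent) in bins of the ratio of observed to expected CpG in the 300-base window (horizontal axis), for members, genes silent in DMSO and with chaetocin, genes at least 2-fold higher with chaetocin and not silent in DMSO, and all promoters. Members and genes silent in both conditions lie to the left, with medians of 0.323 and 0.281, and all promoters lie to the right, with a median of 0.782.

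Among the 34 blood and immune members, UBD encodes a ubiquitin-like modifier, also called FAT10, that marks proteins for the proteasome and is induced by interferon gamma and TNF in many cells. UBD had 766, 714 and 633 counts with chaetocin, against 0 in each DMSO library, which is at least 695-fold higher. Its level was 84.2 ± 8.06 TPM (SD, n = 3), the highest of the set. TREML4, a receptor of myeloid cells, had 149, 192 and 138 counts with chaetocin and 0 in DMSO. SELE (chr1:169722640-169734079), the E-selectin that activated endothelium displays, had 56, 50 and 50 counts, against 0 in DMSO. Endothelium had no class of its own, and SELE was counted with blood and immune cells. NFATC1, a transcription factor of T cells and osteoclasts, had 90, 125 and 102 counts, and FOLR3, a secreted folate-binding protein of neutrophils, had 72.0, 93 and 66.

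Further blood members are named because they were on the marker and pathway lists. CSF3, the granulocyte colony-stimulating factor, had 46, 77 and 70 counts with chaetocin and 0 in DMSO. NCF1, a cytosolic subunit of the phagocyte NADPH oxidase with near-identical pseudogenes, had 63, 60 and 58, against 1, 2 and 0. LST1 had 47, 51 and 46 counts, and the inhibitory receptor CD200R1 49.2, 51.9 and 41.6. The T cell adaptor FYB1 had 28, 26 and 27 counts, the B cell lectin CD22 19, 28 and 19, TAGAP 57, 57 and 71, and OLR1, a receptor for oxidized LDL, 24, 24 and 28. The other members of the class included BANK1, SH2D1B, CH25H, ARHGAP15, GIMAP8, RGS18, HLA-DOB, MMP8, CLEC2B, HBA1, PLEK, P2RX1, RUNX3, CBFA2T3, ARHGAP25, HDC and GIMAP5. They span B cells, T cells, erythrocytes (alpha globin HBA1), platelets and neutrophils. The 8 leukocyte markers summed to 17.6 to 19.8 TPM with chaetocin, 1.55 to 1.96 TPM in DMSO, 1.72 to 2.80 TPM with siSUV39H1 and 1.43 to 1.92 TPM with siNC, and their part in the result was not tested. The T cell lineage marker CD3E was at 3 counts or fewer in each group and at 0 outside the chaetocin libraries. The 6 endothelial markers summed to 22.0 to 23.3 TPM with chaetocin, 1.68 TPM or less in DMSO, 1.59 to 2.18 TPM with siSUV39H1 and 1.46 to 2.31 TPM with siNC. Most of the chaetocin sum was ERG and TEK, with means of 11.5 and 5.29 TPM. PECAM1 had 2.81 TPM with chaetocin, VWF 2.46, CDH5 0.280 and KDR 0.0567 TPM.

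Liver, gut and kidney members were led by SLCO2B1 (chr11:75151107-75206549), an uptake transporter for organic anions and drugs. It had 452, 493 and 535 counts with chaetocin, against 2, 0 and 1 in DMSO, a 487-fold ratio (exact 95% interval 166 to 2364, counting error only). MTTP, the transfer protein that loads lipid onto apolipoprotein B, had 153, 159 and 132 counts, against 1 in each DMSO library. VNN1, a pantetheinase, had 137, 142 and 118, against 0, 1 and 0. ACSL5, an acyl-CoA synthetase whose gene overlaps ZDHHC6, had 129, 130 and 123. FGA, the fibrinogen alpha chain made by hepatocytes, had 117, 113 and 111 counts with chaetocin and 0 in DMSO, the closest agreement between replicates in the set. Lower in the class were, among others, AADAC, A1CF, FCGBP, BEST2, AMBP, PDZK1IP1, SLC51A, PKLR, HEPACAM2, KMO, SAA2-SAA4, CES1, SERPINA2, NR1I2, SLC5A12, SLC5A11, RHCG, NPC1L1, HTR3E, SERPIND1, GALNT3, SPINK4, ADGRG7 and DMBT1. They include the xenobiotic receptor PXR (NR1I2) and the intestinal cholesterol transporter NPC1L1.

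In the testis and germ line class, TEX50 had 180, 156 and 123 counts with chaetocin, against 0, 0 and 1 in DMSO, at 20.4 ± 3.82 TPM (SD, n = 3). TEX50 lies in ANKRD45, a gene at 14.5 TPM with chaetocin and 8.85 TPM in DMSO. TCP11, a sperm protein, had 139, 138 and 139 counts, against 1, 0 and 2. DAZL, an RNA-binding protein that germ cells need, had 112, 144 and 90, against 0. CALR3, the calreticulin of the testis, had 112, 105 and 92, and LYZL6, a lysozyme-like protein of sperm, 87, 113 and 88. The cancer-testis genes SPANXB1 and SPANXC on the X chromosome reached 24.7 ± 4.38 and 12.2 ± 3.15 TPM (SD, n = 3), but their copies are nearly identical and the counting could split reads between them. PRDM7, a near copy of the meiotic histone methyltransferase gene PRDM9, had 41.4, 33.1 and 30.6 counts, and TEX101, a germ cell surface protein, 27, 32.5 and 26. The others were BCL2L14, C17orf64, FAM186A, EID3, TEX29, TEX19, PXT1, SPATA31D4, THEGL, TEX26, DNAJC5B, SPATA31E1, SHOC1 and STPG2. EID3, singled out after its values were seen, lies wholly within TXNRD1 (thioredoxin reductase), which had 572 TPM with chaetocin, 56.2 TPM in DMSO, 116 TPM with siSUV39H1 and 101 TPM with siNC. EID3 had 53, 52 and 45 counts with chaetocin, against 0, 1 and 1 in DMSO, and which reads belong to it is uncertain because strand use in the counting is not given in the sources used here.

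Of the nervous system, eye, ear and pigment members, MLC1 (chr22:50059391-50085875) had the most counts of the whole set. It encodes an astrocyte membrane protein whose loss causes a childhood leukoencephalopathy. MLC1 had 985, 914 and 823 counts with chaetocin, against 1, 0 and 1 in DMSO, at 28.8 ± 2.61 TPM (SD, n = 3). DLGAP1, a scaffold of the postsynaptic density, had 128, 142 and 102 counts, against 0. SAG, the arrestin of rod photoreceptors, had 99, 112 and 95, against 0, 0 and 1. ADCY2, a brain adenylyl cyclase, had 104, 73.2 and 89.1, and CHRM5, a muscarinic acetylcholine receptor whose gene overlaps AVEN, 63.3, 59.1 and 42.2. BFSP2, a lens beaded filament protein, had 70, 60 and 66, and SIM1, a transcription factor of the hypothalamus, 21.0, 19.2 and 20. The others were LIN7A, OTOS, SNTG2, GPR143, OTOA, TAC1, GJA3, DCT, KLHL1, SLC39A12, POU4F1, SLC24A3, PTPRZ1 and CRYBA4. Inner ear proteins (OTOS, OTOA), lens proteins (GJA3, CRYBA4) and melanocyte proteins (GPR143, DCT) are among them.

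SBSN, suprabasin of the upper epidermis, led the skin class with 305, 350 and 346 counts with chaetocin, against 1 in each DMSO library, at 25.3 ± 3.30 TPM (SD, n = 3). EREG, an EGF receptor ligand, had 62.2, 71.9 and 66.0 counts, MC5R, the melanocortin receptor of sebaceous glands, 85, 50 and 62, and EHF, an epithelial ETS factor, 57, 68 and 55. PI3, the elastase inhibitor elafin, had 51, 70 and 48 counts, against 1, 0 and 0 in DMSO, and PROM1, the membrane protein CD133, had 41, 40 and 41, against 0, 1 and 1. TGM5, RNASE7, ANXA8, KLK10, BTC, IGFL3, TCHH, KLK6 and IGFL2 also belong to the class. The 7 epithelial markers summed to 175 to 183 TPM with chaetocin, 123 to 135 TPM in DMSO, 188 to 195 TPM with siSUV39H1 and 140 to 144 TPM with siNC, with KRT5 at 3 counts or fewer in each group. Most of this sum was KRT18, at 103 TPM with chaetocin and in DMSO, 135 TPM with siSUV39H1 and 111 TPM with siNC. In the order chaetocin, DMSO, siSUV39H1 and siNC, CDH1 had 1.08, 0.183, 0.250 and 0.240 TPM, and ELF3 19.1, 0.353, 14.4 and 4.33 TPM.

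The muscle, heart, bone and cartilage class was small. IGFN1, a skeletal muscle protein, had 250, 207 and 299 counts with chaetocin, against 0, 1 and 1 in DMSO. SBK3, a little-studied kinase, had 164, 145 and 157, against 0, 1 and 0, at 11.3 ± 0.668 TPM (SD, n = 3). CHRNA1, the alpha subunit of the muscle acetylcholine receptor, had 154, 133 and 153, against 0, 1 and 1. XIRP2, an actin-binding protein of muscle, had 59, 78 and 68, and MMP13, a collagenase of cartilage and bone, 26, 34 and 17, both with 0 in DMSO. TIMP4, OSTN, EPYC and the read-through gene STIMATE-MUSTN1 were the other members.

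Unassigned members included CCDC68 with 192, 185 and 176 counts with chaetocin, against 0, 1 and 0 in DMSO. EXOC3L4 had 107, 171 and 138 counts, against 0, 1 and 1. CYP19A1, the aromatase that makes oestrogen, had 141, 150 and 112, against 2, 0 and 0. ETV3L, an ETS family factor, had 108, 144 and 132, against 0 in DMSO and 0 in each of the 6 siRNA libraries. PLAAT2, a phospholipid acyltransferase, reached 14.4 ± 1.79 TPM (SD, n = 3). CPQ, a carboxypeptidase, had 81, 91 and 75 counts, TPD52L1 37, 43 and 42, and TGM7, a transglutaminase, 27, 20 and 13. The rest were FYB2, GOLGA6C, QPCT, RFPL4B, ANO9, SLC38A11, FER1L6, STYK1, LOC389602, KIF25, RFPL4A, USP43, H3C14, C2orf78, CYB5R2, FRG2B, HIGD2B, SMIM2, ARL14, TRPM2, TMEM31, LOC107987423, RFPL4AL1, ADGRD1, C1orf87, SETSIP, ZSCAN10, ARL14EPL, UBQLNL, TMEM255A, SIDT1, LRRC3C and GOLGA6B.

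**Figure D4:**
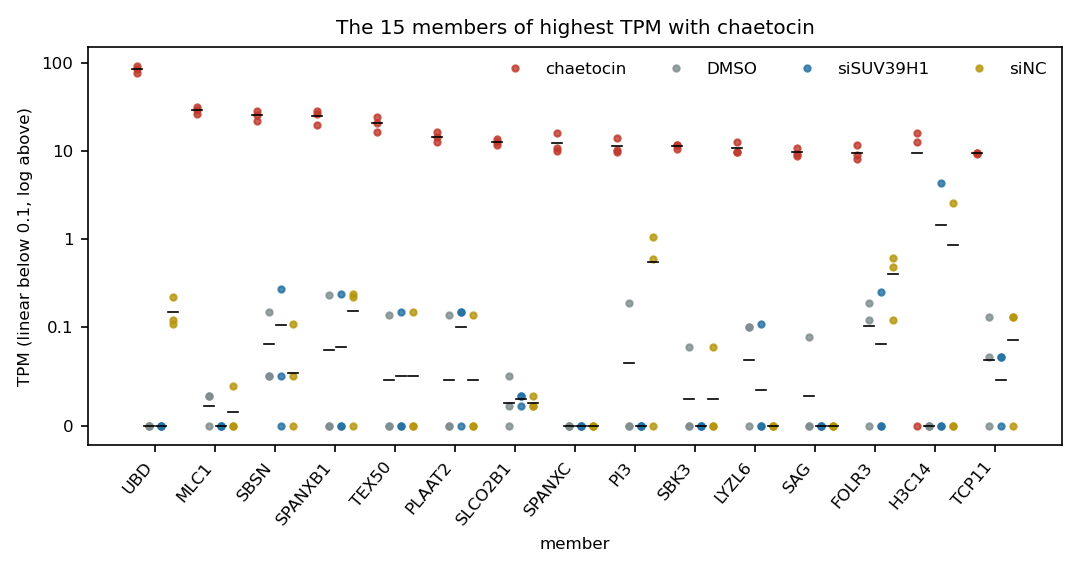
TPM (vertical axis, linear below 0.1 and logarithmic above) of the 15 members with the highest mean TPM with chaetocin, in each library of the 4 groups; points are libraries and bars are means of 3. UBD stands highest at 84.2 TPM, and the chaetocin points lie above those of the other groups except for H3C14, where chaetocin 2 is at 0.

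With siSUV39H1 the RNA of SUV39H1 remained at a mean of 4.23 TPM, against 11.8 TPM with siNC. The members' chaetocin counts are high by choice. Shares of these counts are therefore a description and no test of knockdown against chaetocin. No member reached 60 summed counts with siSUV39H1, the minimum that the rule set for chaetocin. The highest was SAA2-SAA4 with 27.4 counts, 30.4% of its chaetocin counts, and the median member had 1.07% of them. With siSUV39H1 51 members were at 0 counts, 51 were above 3 and 14 had at least 10. With siNC 43 were at 0, 47 were above 3, and 7 had at least 10, the highest being CYP19A1 with 16. The sum over the 3 libraries was higher with siSUV39H1 for 74 members, lower for 56 and equal for 44, and the summed counts per library of the 2 groups overlapped. In 108 members both siRNA groups were at 3 counts or fewer, and 24 had 0 counts in all 6 libraries. A count of 3 over a group corresponds to 0.0505 CPM with siSUV39H1 and 0.0516 with siNC. It is the limit of the rule and not a limit of detection, since 123 members were above 0 counts with siSUV39H1 and 131 with siNC. Levels this low rest on few reads. The limit of 3 counts was set on DMSO, which keeps DMSO low by choice, and neither siRNA group is compared with it here.

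With p-values from the quasi-likelihood test of edgeR, adjusted by Benjamini-Hochberg over all genes, 5 of 174 members, or 2.87%, differed between siSUV39H1 and siNC at an adjusted p under 0.05. Over all 15051 tested genes 33.9% did. At an unadjusted p under 0.05 there were 10 members, with 43.2% over all genes. Members passed the filter on low counts through their chaetocin libraries, and 108 of them had 3 counts or fewer in both siRNA groups. None passed it on the siRNA libraries alone. The shares of members and of all genes therefore cannot be compared, and the calls named here describe low counts. PROM1 was called higher, with 7, 5 and 4 counts with siSUV39H1, against 0, 2 and 1 with siNC (log2 fold change 2.25 ± 0.68 SE, edgeR adjusted p = 0.0181). SAA2-SAA4 was called higher as well, with 6.05, 15.4 and 5.94 expected counts, against 2.92, 1.41 and 4.18 (1.68 ± 0.59, edgeR adjusted p = 0.0428). This read-through gene spans SAA2, an acute-phase serum amyloid gene at 25.6 TPM with chaetocin, 0.600 TPM in DMSO, 18.7 TPM with siSUV39H1 and 6.93 TPM with siNC, and which gene its reads belong to is uncertain. The PROM1 call was lost without siSUV39H1 replicate 1 (edgeR adjusted p = 0.0614) or siNC replicate 1 (0.0763). The SAA2-SAA4 call was lost without siSUV39H1 replicate 2 (0.222), siNC replicate 1 (0.0861) or siNC replicate 2 (0.143).

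The other 3 called members were called lower with siSUV39H1, among them KMO and PI3. KMO, the kynurenine monooxygenase of tryptophan breakdown, had 0 in each siSUV39H1 library, against 4.79, 1 and 3.95 expected counts with siNC (edgeR adjusted p = 0.0128). It overlaps OPN3, which had 5.36 TPM with siSUV39H1 and 8.12 TPM with siNC. PI3 had 0 in each siSUV39H1 library, against 0, 6 and 3 with siNC (edgeR adjusted p = 0.0357), so the groups touched at 0. Both calls rest on fewer than 10 counts in the higher group, and fold changes against 0 counts are left out. KMO was called whichever siRNA library was left out (edgeR adjusted p = 0.00694 to 0.0471). PI3 was called in 1 of the 6 such fits, that without siNC replicate 1 (0.0101), and reached 0.133 without siNC replicate 2. UBD, with 0 in each siSUV39H1 library, against 2, 1 and 1 with siNC, missed the threshold (edgeR adjusted p = 0.0515).

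Several members with the most siRNA counts that were not called had overlapping libraries. CYP19A1 had 9, 2 and 6 counts with siSUV39H1, against 7, 6 and 3 with siNC. THEGL, a testis gene, had 7, 4 and 12, against 1, 7 and 3, and CHRM5 had 6, 4.10 and 7.34, against 0, 8.01 and 4. PDZK1IP1, a small membrane protein of kidney tubules, had 7, 7 and 3, against 4, 4 and 0. CHRNA1 had 4, 4 and 3, against 5, 2 and 3, and FOLR3 had 0, 2 and 0, against 1, 5 and 5 (edgeR adjusted p = 0.0722). PRDM7 had 2.52, 6.27 and 5.78 expected counts with siSUV39H1, against 0, 2.05 and 3.10 with siNC (edgeR unadjusted p = 0.0455, adjusted p = 0.107). EREG had 2.43, 6.08 and 5.06, against 2.97, 1.09 and 0.720 (edgeR adjusted p = 0.171). CPQ had 6, 3 and 4 counts, against 2, 2 and 1, with no overlap (edgeR adjusted p = 0.176).

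**Figure D5:**
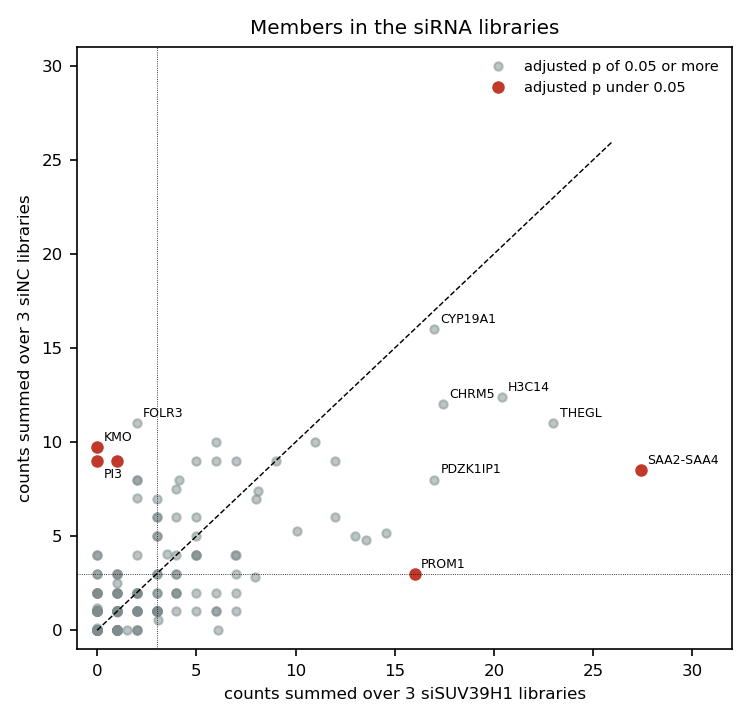
Counts of each member summed over the 3 siSUV39H1 libraries (horizontal axis) and over the 3 siNC libraries (vertical axis); the dashed line marks equal counts, dotted lines mark 3 counts and red points are the 5 members with an adjusted p under 0.05. Most members crowd below 10 counts on both axes, and SAA2-SAA4 stands furthest right at 27.4 counts with siSUV39H1.

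Few members were on the pathway and tissue lists, which are short. Some lists hold symbols beginning with TNF, which the rule set aside, so these genes could not be members. Over all 2835 genes silent in DMSO, 6.14% were members. Of 48 interferon-stimulated genes measured, 7 were silent in DMSO and 1, UBD, was a member. Of 51 NF-kB target and inflammatory genes 12 were silent and 4 (CSF3, MMP13, OLR1 and SELE) were members, and of 95 leukocyte genes 40 were silent and 8 were members. Each of the other lists held 1 or 2 members, of 9 to 26 silent genes. Differences from the share over all silent genes were not tested. A gene without reads in DMSO could enter the test only where its counts were high in another group, so the lists are described over the 13382 tested genes with at least 10 counts in each DMSO library, among which there is no member. This limit was added after the data had been seen, and the lists were chosen with earlier results of these data known. The numbers called on them are therefore a description and no independent support. With chaetocin, by edgeR's test, 29 of 29 such interferon-stimulated genes and 27 of 27 NF-kB genes were called higher, with median log2 fold changes of 4.25 and 3.18, against -0.08 over all such genes. Of 25 leukocyte genes 17 were called higher and 3 lower, of 14 epithelial genes 10 and 0, of 16 germline and placenta genes 10 and 5, and of 4 liver, kidney and intestine genes 3 and 0. Of 14 endothelial genes 6 were called higher and 6 lower, of 16 muscle and heart genes 5 and 7, and of 12 neuron, retina and inner ear genes 3 and 5. Over all such genes 35.9% were called higher and 43.1% lower. Without the limit, members included, more muscle and heart genes were called higher (16) than lower (7), and likewise for neuron, retina and inner ear genes (14 and 5).

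With siSUV39H1 against siNC, over all tested genes of each list, 3 interferon-stimulated genes were called higher and 12 lower of 42, 9 NF-kB genes higher and 8 lower of 41, and 3 leukocyte genes higher and 9 lower of 62. Of 18 endothelial genes 0 were called higher and 7 lower, of 33 epithelial genes 4 and 6, and of 13 liver, kidney and intestine genes 1 and 0. For muscle and heart the numbers were 4 and 6 of 29, for neuron, retina and inner ear 0 and 1 of 23, and for germline and placenta 0 and 4 of 30. The shares over all genes were 15.3% higher and 18.6% lower. The limit on DMSO counts was not applied here. It was met by 29 of the 42 interferon-stimulated genes and 25 of the 62 leukocyte genes. Genes that entered the test through their chaetocin libraries can have few siRNA counts, so the lists cannot be compared with the shares over all genes.

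Members were spread over 23 chromosomes. Chromosome 1 held 18, and chromosome 13 had the highest share, 7 of its 323 genes or 2.17%. Over all genes there were 174 members of 18739. The chromosome 13 share is the largest of many, rests on 7 genes and was not tested. Another member lay within 100 kb of 14 members, or 8.05%, against 3.98% of genes silent in both conditions and 3.24% of all genes. The pairs included CSF3 and LRRC3C, TGM5 and TGM7, KLK10 and KLK6, IGFL2 and IGFL3, RFPL4A and RFPL4AL1, and GOLGA6B and HIGD2B. Several of these are neighbours of the same gene family, and IGFL2 and IGFL3 overlap each other. The nearest tested gene that was no member was called at least 2-fold higher with chaetocin for 57 of 174 members, or 32.8%. The share was 27.8% for genes silent in both conditions and 19.8% for all other tested genes. In the same order, the nearest gene was at least 2-fold lower for 9.77%, 16.4% and 15.4%. Its median log2 fold change was 0.268 for members, 0.271 for genes silent in both conditions and 0.0157 for all other tested genes. A gene body overlapped another gene of the table for 25 members, 16 had a near-identical copy or a read-through partner, and 38 had either.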

How the data were processed

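RNA from 12 SK-N-SH libraries was analysed. Per the labels' protocols, RNA came from Trizol extraction and libraries were made for DNBSEQ. The deposited tables give, per the file headers, an expected count, an FPKM and a TPM value per gene and library. Named in the submitters' processing notes are Bowtie2, RSEM 1.3.1, the build hg38 and DESeq2 1.4.5. The sources used here do not give the annotation, read filters or strand use. The authors' FPKM values were not used, and TPM values served for levels.

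Members and gene lists were chosen with earlier results of these data known, and so were the tests. Expected counts as deposited defined the members. After rounding, low counts were removed by filterByExpr, TMM factors were computed and edgeR 4.0.16 fitted quasi-likelihood models in R 4.3.3 (12 libraries, 1 mean per group, 15051 genes, 8 residual degrees of freedom, biological coefficient of variation 8.87%), with Benjamini-Hochberg adjustment over all genes and calls at an adjusted p under 0.05. Folds between chaetocin and DMSO are ratios of summed counts, scaled by TMM library size, with exact 95% intervals, or bounds against 3 counts over the group where DMSO was at 0. Intervals and floors cover counting error only. The genes named were the 15 members highest in TPM, the 10 with the most counts, up to 10 per siRNA group of those with at least 10 counts, called members, the 4 with the most counts of each class, genes at the limits and members on the lists. BFSP2 and EID3 were named after their values were seen, other members are named without values, and some genes are not reported here. Coordinates and promoters are from RefSeq (GRCh38.p14). The fit was tested on simulated counts. No 2 libraries of a group were copies, since chi-square per gene between them was 3.36 to 17.9. Alternatives are given at the end, and those without overlapping or copied genes, and the minimum in DMSO for the gene lists, were chosen after seeing the data.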

Additional observations from a re-analysis of the deposited data

How the results depend on the processing

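The rule sets the size of the list: it gave 61 genes with a DMSO limit of 0, 338 with a limit of 10, 353 with a chaetocin minimum of 30, 90 with a minimum of 120 and 353 when mean TPM was used (at most 0.05 in DMSO and at least 0.5 with chaetocin), of which 140 were members. Leaving out a chaetocin or DMSO replicate gave 170 to 188 genes, of which 160 to 169 were members. Members above 0 counts numbered 123 with siSUV39H1 and 131 with siNC, and those above 10 numbered 14 and 5. The share of promoters with the ARE motif was 5.80% in the 250 bases before the start, against 10.9% in the whole window, and 23 members had another within 250 kb, against 14 within 100 kb. Of the 5 members called between siSUV39H1 and siNC, DESeq2 1.42.0 called 2 (PROM1 and PI3), with 110 members given an adjusted p, and 3 were called among members without an overlapping gene, near-identical copy or read-through partner. Leaving out a replicate gave 2 to 7 calls: 2 without siSUV39H1 replicate 1, 3 without siNC replicate 1 and 3 without siNC replicate 2. With the replicate block 4 were called, 1 higher and 3 lower, SAA2-SAA4 being lost (edgeR adjusted p = 0.0601); same-numbered siSUV39H1 and siNC libraries correlated at -0.05, -0.27 and 0.16, so the numbers do not pair the samples. A fit of the 6 siRNA libraries alone kept 0 members after its own filter and gives no value. Depth limits the siRNA comparison, in which most members had 3 counts or fewer per group.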

Other observations

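The same limits applied the other way, at most 3 counts with chaetocin and at least 60 in DMSO, took 12 genes, against 174 members. They include HRH3, a histamine autoreceptor of neurons, with 0, 1 and 1 counts with chaetocin, against 145, 117 and 133 in DMSO. TRIL had 0, 0 and 1, against 74, 63 and 65, LMO3, a LIM-only protein known from neuroblastoma, had 2, 1 and 0, against 72, 49 and 51, and GPR27 had 0, against 72, 57.7 and 61. The others were RIPPLY2, LINGO4, WSCD2, EMILIN3, CBLN4, CCDC177, HCN4 and SYT9. All 12 had counts in each siRNA library. HRH3 had 62, 49 and 66 counts with siSUV39H1, against 54, 44 and 54 with siNC, and LMO3 had 41, 51 and 43, against 34, 29 and 35.

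Between the siRNA groups the limits took 1 gene. UTP14C, a retrogene copy of UTP14A, had 0, 77.3 and 0 expected counts with siSUV39H1, against 0 in each siNC library, so 1 library holds all its counts. It had 146, 115 and 125 with chaetocin, against 13.8, 0 and 0 in DMSO. No gene was silent with siSUV39H1 and at 60 counts or more with siNC.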
